A study of Mus musculus with 22 samples.

Results

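The 186 genes described here gained an ATRX peak at their promoter in both replicates of TERRA knockdown (KD) in mouse embryonic stem (ES) cells. They were selected on the ATRX peak lists themselves. The transcription start site (TSS) of each had an ATRX peak within 1 kb in both TERRA KD lists and in neither scramble KD list. These 186 were 0.713% of the 26089 RefSeq genes on chromosomes 1 to 19 and X of GRCm38, each with its most upstream start as the TSS. The opposite pattern, a peak in both scramble KD lists and in neither TERRA KD list, was met by 2 genes (0.00767%). These were Olfr460 and Vmn1r7, a receptor gene for odorants and one for pheromones, each on chromosome 6. Few genes could meet this reverse rule, since only 7 were called in both scramble KD lists, against 200 in both TERRA KD lists. Scramble KD replicate 1 called 279 genes, replicate 2 only 154. TERRA KD replicate 1 called 2153 genes, replicate 2 called 1265.

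The study used the 16.7 line of ES cells, derived from a cross of CAST/Ei x 129/Sv/Jae mice, with 2 X chromosomes, grown with LIF in serum and separated from feeder cells. The cells of both groups were nucleofected with locked nucleic acid (LNA) gapmers and collected at 12 h. In the TERRA KD group the gapmer targeted TERRA, an RNA of telomere repeats whose transcription starts in the subtelomeres and runs toward the chromosome ends. In the scramble KD group it had a scrambled sequence, so both groups carried the nucleofection and an LNA. ATRX, H3K9me3 and G-quadruplex (G4) DNA were mapped by chromatin pull-down and open chromatin by ATAC-seq, with 2 replicates per group and assay (16 peak lists in all), and every library came from this 1 cell line.

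ATRX is a SWI/SNF-type chromatin remodeler which, together with DAXX, places a variant of histone H3 at telomeres, pericentromeric repeats and other repeat-rich or G-rich DNA. G4s are folded structures of single-stranded DNA rich in guanine runs, and they are common just upstream of active mammalian genes. H3K9me3 is the histone mark of constitutive heterochromatin and is rare at active promoters, whereas an ATAC peak marks DNA open to the transposase. The 5S rRNA genes, which recur below, encode the small RNA of the large ribosomal subunit, lie in a tandem array and are transcribed by RNA polymerase III from a promoter within the gene.

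The lists differed in depth and length in ways that touch every count below. The ATRX libraries held 6606064 and 15506154 mapped tags after filtering in the scramble KD libraries (replicate 1, then 2) and 4104486 and 14878010 in the TERRA KD libraries, and their lists held 7321, 13652, 41384 and 21718 peaks in that order. The longest ATRX list thus came from the shallowest library, and its median false discovery rate (FDR), as the peak caller estimated it by swapping sample and input, was 100%, against 3.65% in TERRA KD replicate 2. One G4 library stood apart at the TSS: 22.2% of all TSS had a G4 peak within 1 kb in TERRA KD replicate 2, against 41.3%, 64.3% and 48.7% in the other lists. The longest and deepest G4 list was scramble KD replicate 2 (389434 peaks, 24588605 tags). TERRA KD replicate 2 came next (225024 peaks, 13127555 tags), with a median FDR of 12.56%, against 0.1% to 0.99% elsewhere. Replicate 1 had 140119 peaks from 2961038 tags under scramble KD, 173699 from 5759282 under TERRA KD. The part of depth in the G4 differences was not tested. An ATAC peak lay at the TSS of 9 or 10 of 10 ES cell marker genes in every ATAC list, and at 4 or 5 of 8 fibroblast (feeder) marker genes. Some feeder markers thus had an ATAC peak in these libraries, while Col3a1, Lum and Postn had none in any list. Whether such peaks came from remaining feeder cells was not tested. No expression data were used.

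Of the 186 genes, 128 were protein-coding (68.8%, against 80.2% of all 26089), 27 encoded 5S rRNA, 19 were long non-coding RNA genes, 9 were microRNA genes, 2 were transcribed pseudogenes and 1 was a small nucleolar RNA gene, Snora70. The rRNA genes were the one class where most annotated genes were members: 27 of 33 (81.8%), against 0.612% of protein-coding and 0.733% of microRNA genes. All 27 lay in a single array on chromosome 8. Members that shared an ATRX peak numbered 40, and after joining these the 186 genes stood for 164 separate sites.

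One promoter window is shown to give an example of the guanine runs searched for at the starts, since Rnf122, a RING finger gene, is among the members whose G4 peak was listed in both scramble KD lists and in neither TERRA KD list. The window runs from 250 bases before to 50 after the start (RefSeq, GRCm38), at chr8:31111577-31111876 on the plus strand. Capitals mark the G4 motif, which is GGG 4 times over with 1 to 7 bases N between the runs (on the coding strand), or the same with CCC (on the template strand).
Rnf122: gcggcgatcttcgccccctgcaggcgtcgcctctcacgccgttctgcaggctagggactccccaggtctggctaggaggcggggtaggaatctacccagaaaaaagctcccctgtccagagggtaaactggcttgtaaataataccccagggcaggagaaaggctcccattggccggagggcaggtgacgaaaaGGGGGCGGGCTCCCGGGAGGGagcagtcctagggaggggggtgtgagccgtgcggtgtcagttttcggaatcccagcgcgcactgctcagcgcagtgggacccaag
The Rnf122 window held 1 such motif, on the coding strand upstream of the start. Of the 186 members, 118 had a window in the RefSeq promoter table. Of these, 29 (24.6%) held the motif on either strand, against 20.6% of 26676 other genes. The share is for these 118 members only, and the window printed for Rnf122 did not match a window of that table. In the 5S array, all 32 starts held the motif on the coding strand of a window of this length. Of all 32619 promoter windows, 18.7% held it.

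The members were not spread evenly over the chromosomes. Chromosome 8 held 62 and chromosome 6 held 26, together 47.3% of the members on chromosomes with 10.1% of all TSS. On chromosome 8, 4.88% of TSS were members, and 2.82% when the 5S genes were left out. On chromosome 6 the value was 1.9%, and over the 18 other chromosomes together it was 0.418%, from 0.0867% on chromosome 7 to 0.872% on chromosome 17.

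The same chromosomes were dense in ATRX peaks in all 4 lists, scramble KD included. In peaks per Mb, scramble KD replicate 1 had 6.18 on chromosome 6 and 6.23 on chromosome 8, against a median of 2.37 over the other 18 chromosomes. In scramble KD replicate 2 the values were 16.0, 14.6 and 3.69. TERRA KD replicate 1 had 25.7, 26.7 and 14.2, and TERRA KD replicate 2 had 21.2, 26.2 and 6.45. Chromosomes 6 and 8 thus ranked first and second in each ATRX list, by factors of 1.81 to 4.33 over the median. In the H3K9me3 lists, which were called against the same inputs as ATRX, the ratios were 1.2 to 1.92. In the G4 lists they were 1.03 to 1.42 and in the ATAC lists 1.15 to 1.33, where chromosome 11 was denser than both in each list. Copy number of chromosomes 6 and 8 was not measured here, and its part in the count of members was not tested. The values for the 98 members on the other chromosomes are therefore given beside those for all 186.

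**Figure D1:**
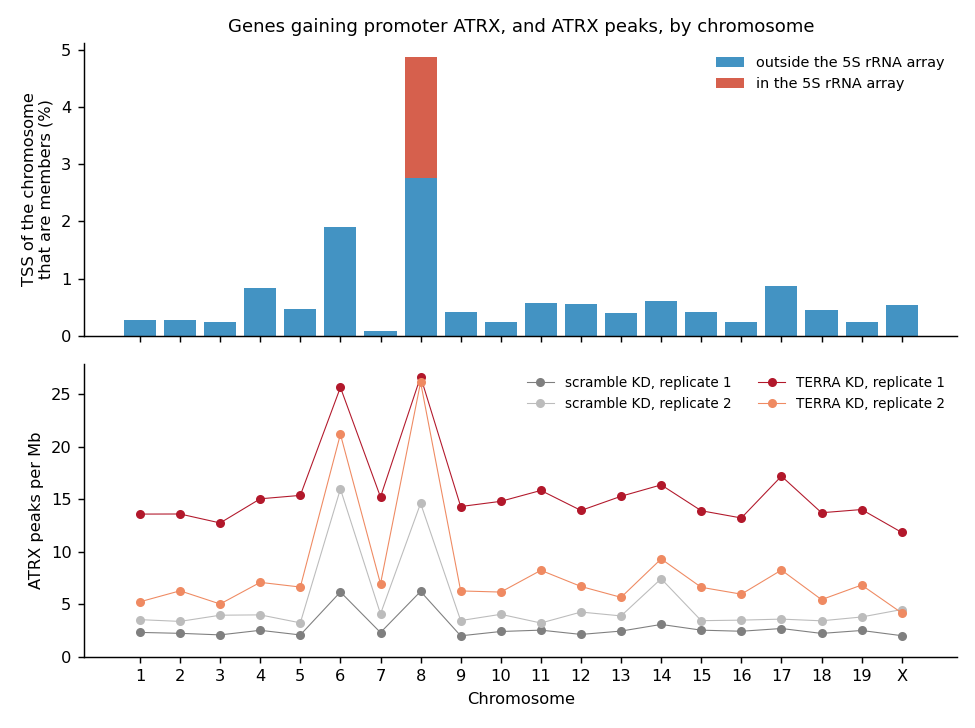
Top, share of each chromosome's TSS that were members (%), with the part in the 5S rRNA array in red. Bottom, ATRX peaks per Mb of each chromosome in the 4 lists (lines only join the points of a list). Chromosome 8 reached 4.88% and chromosome 6 reached 1.9%, and both stood above every other chromosome in ATRX peak density in each list.

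The 5S array at chr8:123538904-123622046 held the strongest group of members. It spans 83.1 kb, with 32 annotated 5S starts, all on the minus strand, at a median spacing of 1703 bp, and 27 of the starts were members. Within the array and 1 kb on each side, the scramble KD lists held 0 and 2 ATRX peaks, whereas the TERRA KD lists held 34 and 47. These covered 0 and 1.04 kb in the scramble KD lists and 53.2 and 50.1 kb in the TERRA KD lists (62.5% and 58.9% of the region). The best peak had a −log10 p of 2.42 in scramble KD, at rank 5319 of its list, and of 36.9 and 44.6 in TERRA KD, at ranks 137 and 26 of their lists. In TERRA KD, 29 and 31 of the 32 starts had an ATRX peak within 1 kb, against 0 and 1 in scramble KD. Since 27 of these starts were chosen on these calls, the counts are a description. The 5 starts that were not members were Gm25018, n-R5s117, Gm26391, Rn5s and n-R5s139. A scramble KD replicate 1 peak 1258 bp from the n-R5s149 start lay just outside the counted region. The gene sequence was the same in 31 of the 32 copies, and how reads were placed among copies was not tested, so values at a named copy below are those of the lists.

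The other assays differed from ATRX over the array. G4 peaks already covered 90.1% and 80.9% of it in the scramble KD lists and covered 79.5% and 43.9% in the TERRA KD lists. ATAC peaks, 24 and 28 in the scramble KD lists and 27 and 29 in the TERRA KD lists, lay within 1 kb of 22, 23, 24 and 24 of the 32 starts, in that order. H3K9me3 peaks were few and weak: 2 and 5 in scramble KD, covering 6.76% and 3.28% of the region, and 5 and 13 in TERRA KD, covering 29.0% and 8.04%. The starts with H3K9me3 within 1 kb numbered 4 and 6 in the scramble KD lists and 13 and 13 in the TERRA KD lists. The highest −log10 p of H3K9me3 there was 7.32, in TERRA KD replicate 2, and no other list passed 4.28. Each unit of the array held G-rich DNA, with 180 coding-strand G4 motifs over the 32 units (median start at −451.5 bp from the TSS, downstream positive) and 32 template-strand motifs (median start at 204 bp).

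**Figure D2:**
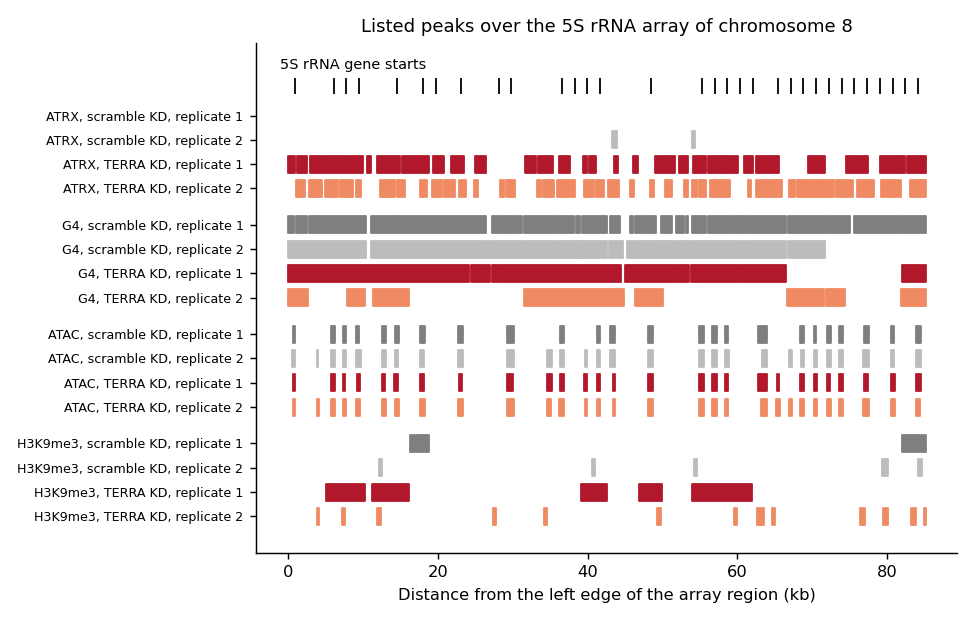
Listed peaks (blocks) of each assay and library over the 5S rRNA array, by distance from the left edge of the region in kb, with the 32 gene starts as ticks. ATRX blocks are nearly absent from the scramble KD rows (0 and 2) and fill most of both TERRA KD rows (34 and 47), while ATAC blocks recur at the same places in all 4 rows.

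Individual array genes showed the same pattern. Gm23284 had no ATRX peak within 1 kb in the scramble KD lists, and its best peaks in the TERRA KD lists had 113 tags in each replicate, a −log10 p of 36.9 and 44.6, and a fold enrichment over input of 29.7 and 24.9. The neighbouring copy n-R5s149 shared the TERRA KD replicate 1 peak and had a −log10 p of 26.9 in TERRA KD replicate 2. A scramble KD replicate 1 peak lay 2945 bp from the Gm23284 start and 1258 bp from that of n-R5s149. Its nearest base fell within the span of the TERRA KD replicate 1 peak that both copies shared. The copy n-R5s136 reached 29.6 and 11.1, with 144 and 152 tags. At n-R5s121, near the middle of the array, the values were 8.26 and 11.5 with 38 and 46 tags, and the gene had G4 peaks in all 4 lists and ATAC peaks in all 4 lists. Members that shared the peaks of both TERRA KD lists were counted once for ranking. Of the 20 then best ranked in the worse of both TERRA KD lists, 14 lay in the array. The other 6 were Gm13276, Gm13287, Gm13272, Uros, E030030I06Rik and Hoxa11os.

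Outside the array the ATRX peaks at the members were mostly near the calling threshold. Over all 186 members, the best peak's −log10 p had a median of 2.44 in TERRA KD replicate 1 (range 2.01 to 36.9) and of 2.58 in replicate 2 (range 2.01 to 204.8), where the caller listed peaks from 2 upward. The median number of tags was 5.5 (range 4 to 342) in replicate 1 and 12 (range 8 to 595) in replicate 2. In the array the medians were 42 and 46 tags, and outside it 5 and 12. In replicate 1, 93 members rested on a peak of at most 5 tags, of which 1 was in the array. Both peaks had a −log10 p of 5 or more at 17 members, 15 of them in the array, and the other 2 were Gm13276 and Gm13287. At 92 members both peaks were under 3, and 91 of these lay outside the array. An FDR of 5% or less was given to the peak of 18 members in replicate 1 (9.68%, against 5.00% of all peaks in that list) and of 185 members in replicate 2 (99.5%, against 99.9% of all). These values describe how the members were selected and were not tested. With peaks of a −log10 p of at least 5 in all 4 lists the rule gave 19 genes, and with lists trimmed to equal length by rank it gave 42.

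**Figure D3:**
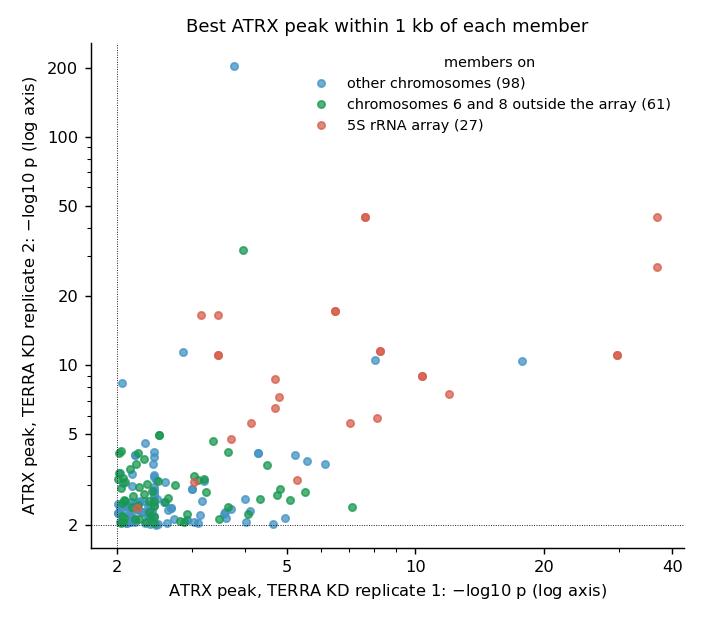
Each point is a member, placed by the −log10 p of its best ATRX peak within 1 kb in TERRA KD replicate 1 (x, log axis) and replicate 2 (y, log axis), with dotted lines at the caller's limit of 2. Array members (27, red) extend to 36.9 and 44.6, and most of the other 159 crowd near the limit on both axes.

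The best peaks of both replicates (highest −log10 p within 1 kb of the TSS) were often near each other but not at the same place. They overlapped by at least 1 bp at 103 members (55.4%) and did not at 83. The TSS itself lay inside the best peak at 52 members in replicate 1 and 56 in replicate 2, and at 27 in both. A TSS inside another listed peak was not counted. The whole best peak lay upstream of the TSS at 59 and 51 members and downstream at 75 and 79. The median distance from TSS to peak centre was 568 and 538 bp. At 100 members the nearest base of the best peak was within 500 bp in both lists. Some members had a scramble KD peak just beyond the limit. In each replicate, 5 had one over 1 and within 2 kb. Over 1 and within 10 kb, 24 had one in replicate 1 and 32 in replicate 2. The same counts over all TSS were not computed. Among the members nearest to the limit on the inside were A730013G03Rik (826 and 987 bp in replicates 1 and 2) and Hoxa11os (247 and 986 bp). Nearest on the outside, and so not members, were Gm15446 (389 and 1006 bp), Pdpk1 (366 and 1026 bp) and Atp2c2 (1027 and 286 bp).

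**Figure D4:**
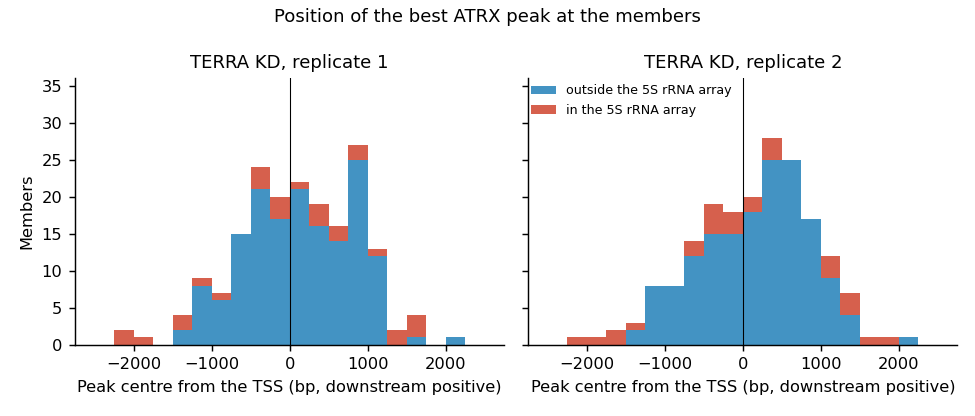
Number of members by the distance of the centre of the best ATRX peak from the TSS (bp, downstream positive), for TERRA KD replicate 1 and replicate 2, with array members in red. The centres spread over both sides of the TSS, at a median absolute distance of 568 and 538 bp, with no narrow summit at the start.

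Among members outside the array, a cluster of neighbouring genes on chromosome 4 stood out by peak height. Gm13272, Gm13276, Gm13287 and Gm13288 are predicted protein-coding genes of GRCm38 that lie within the same stretch of chromosome 4, from Gm13272 with its start at 88779850 to Gm13288 with its start at 88805531. The −log10 p in TERRA KD replicates 1 and 2 was 5.22 and 4.03 at Gm13272, with 12 and 18 tags. At Gm13276 it was 17.8 and 10.4, with 31 and 27 tags. At Gm13287 it was 8.05 and 10.6, with 25 and 35 tags. At Gm13288 it was 2.38 and 2.14, with 19 and 12 tags. All of them had ATAC peaks in all 4 lists and G4 peaks in at least 2. Whether reads were split between these genes was not tested.

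The other well-ranked members outside the array were of modest height. Uros, which makes uroporphyrinogen III in heme synthesis, had a −log10 p of 6.13 and 3.70 with 12 and 15 tags, and its start carried a strong G4 peak in every list (40.9 and 64.5 in scramble KD, 27.3 and 18.1 in TERRA KD). E030030I06Rik had 5.58 and 3.81 with 14 and 12 tags. Hoxa11os, the antisense transcript of the Hoxa11 homeobox gene, had 4.49 and 3.65 with 10 and 15 tags. The highest value of all belonged to 2700054A10Rik, a long non-coding RNA gene of chromosome 17: 204.8 with 595 tags in TERRA KD replicate 2, but 3.76 with 342 tags in replicate 1. Its region also ranked at the top of other lists of replicate 2, with a −log10 p of 319 for G4 and 208 for H3K9me3 under scramble KD, and of 146 and 310 under TERRA KD. In both replicate 1 lists of H3K9me3 it had no peak. Whether such values come from reads that map to many places was not tested.

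The members belonged to many functional classes. Of 13 gene lists (pluripotency, ES cell and fibroblast markers, WNT, FGF and MAPK, TGF-beta and BMP, Notch and Hedgehog, Polycomb and Trithorax, p53 and apoptosis, cell cycle, neural transcription factors, G4 helicases, and ATRX with its chromatin partners), 12 had 0 members. The exception was the list of neural transcription factors, with 2 of 46 (4.35%, against 0.713% of all TSS): Sox1, an early marker of neural progenitors, and Lhx1, a LIM homeobox factor of head and kidney development. Both had weak peaks. At Sox1 the −log10 p was 2.02 and 3.36 with 5 and 16 tags, and at Lhx1, which shares its peaks with the antisense gene Lhx1os, it was 2.14 and 2.05 with 4 and 8 tags. The 13 lists held 8 to 56 genes each, so the 0.713% share over all TSS would place few or no members in any list.

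Transcription factors and nuclear regulators accounted for 16 members. Beside Sox1 and Lhx1 they included Hhex, a homeobox factor of anterior endoderm and blood, Mycl of the MYC family, Mafk, a small MAF protein, Thra, the alpha thyroid hormone receptor, Aff4, the scaffold of the super elongation complex, and Hcfc1, a cofactor that anchors histone modifiers at promoters. At Hhex the −log10 p was 2.33 and 4.55 with 25 and 23 tags, and a scramble KD replicate 1 peak lay 1052 bp from the start, just past the limit. At Mycl it was 2.39 and 2.44 with 6 and 13 tags, with a scramble KD replicate 1 peak 1017 bp away. At Aff4 it was 2.59 and 2.53 with 5 and 10 tags. Of these 16 genes, 15 had an ATAC peak in all 4 lists, 9 had a G4 peak in both scramble KD lists and 1 in both TERRA KD lists. Over all 186 members the shares were 77.4%, 60.8% and 24.2%, and over all TSS 57.3%, 34.8% and 14.9%. The functional groups here were assigned by hand, and their counts were not tested against these shares. By description, 4 members had a homeobox name (Hoxa11os, Lhx1, Lhx1os and Hhex, of 253 such genes), of which Hoxa11os and Lhx1os are antisense transcripts, and 4 of 692 had zinc finger in their description, of which Zfp971 and Zfp800 are named as zinc finger proteins while Zdhhc7 is a palmitoyltransferase and Zswim4 carries a SWIM-type finger. Zfp996, described only as a predicted gene, was not counted there. Genes named as histone- or DNA-modifying enzymes (86) and as bromodomain, chromodomain or remodeler proteins (53) had 0 members. Over all TSS the share was 0.713%, which would place few or no members in sets of this size.

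Genes known from neurons formed a second group of 13. They included Grin2b, a subunit of the NMDA glutamate receptor, Grip2, which binds AMPA receptors, Cacna1a, the pore of P/Q-type calcium channels, Cacng8, an AMPA receptor auxiliary subunit, Kcnip3, a calcium sensor of potassium channels, Htr5a, a serotonin receptor, and Epha4, an ephrin receptor of axon guidance. At Grin2b the ATRX −log10 p was 2.34 and 2.06 with 8 and 10 tags, with G4 and ATAC peaks in all 4 lists. At Cacna1a it was 2.15 and 3.51 with 5 and 14 tags, and the G4 peak of the start (14.0 and 32.5 in scramble KD, 7.45 in TERRA KD replicate 1) was missing from TERRA KD replicate 2. Of the 13, ATAC peaks stood in all 4 lists at 11, and G4 peaks stood in both scramble KD lists at 9 and in both TERRA KD lists at 4. The same shares were 77.4%, 60.8% and 24.2% over all 186 members and 57.3%, 34.8% and 14.9% over all TSS. By name, 6 of 274 ion channel genes were members (2.19%, against 0.713% of all TSS): Kcnip3, Scnn1a, Cacng8, Cacna1a, Trpv3 and Tmc6. Of these, Kcnip3 and Cacng8 are the calcium sensor and the auxiliary subunit named above. Solute carriers gave 4 of 398 (1.005%): Slc6a6, the taurine transporter, Slc25a26, Slc35f3 and Slc38a1, a glutamine transporter. These family counts are small and were not tested.

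Kinases, receptors and signalling regulators made up 14 members, and 10 of these lay on chromosomes 6 and 8. Examples were Wnk1, a kinase that controls chloride cotransporters, Csnk2a2, a catalytic subunit of casein kinase 2, Map3k21, Dusp26, Rasa3, a RAS GTPase activator, and the receptors Adrb3 and Adipor2. Nf2, the merlin tumor suppressor, lay on chromosome 11. At Wnk1 the −log10 p was 3.65 and 4.17 with 9 and 26 tags. Lipid and intermediary metabolism gave 12 members, among them Fasn, fatty acid synthase, Elovl5, a fatty acid elongase, Mlycd, malonyl-CoA decarboxylase, and Psap, the precursor of the saposins. At Fasn the −log10 p was 2.44 and 4.16 with 5 and 20 tags. Replication, mitosis, the nucleotide pool and histones accounted for 5 members: Gins4 of the replicative helicase, Mad1l1 of the spindle checkpoint with its neighbour Nudt1, and the paired histone genes H2ac24 and H4bc24. All 5 had ATAC peaks in all 4 lists, and none had a G4 peak in both lists of either group, but Mad1l1 and Nudt1 shared ATRX peaks, as did both histone genes. Over all 186 members, 77.4% had ATAC peaks in all 4 lists (57.3% of all TSS). G4 peaks in both scramble KD lists were at 60.8% of members (34.8% of all TSS), and in both TERRA KD lists at 24.2% (14.9%). Of 1482 olfactory and vomeronasal receptor genes, 1 was a member, Olfr373 (0.0675%, against 0.713% of all TSS, not tested). A further 55 protein-coding members were placed in no group.

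The 9 microRNA genes included several with well-known products. Their mature sequences (RefSeq) are shown because they are what these genes make. None of the mature products of the member genes shared a seed with another. The seed, bases 2 to 8, pairs with targets and is in capitals.
miR-200a-3p: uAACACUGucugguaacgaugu
miR-429-3p: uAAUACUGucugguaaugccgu
miR-137-3p: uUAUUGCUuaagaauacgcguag
miR-129-5p: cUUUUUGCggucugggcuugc
Mir200a and Mir429 belong to the miR-200 family, known for holding cells in an epithelial state, lie close together on chromosome 4 and shared their ATRX peaks. Their −log10 p was 2.21 in replicate 1 with 5 tags and 4.05 in replicate 2 with 17 tags, and neither start had an ATAC or H3K9me3 peak in any list. Mir137, linked to neuronal maturation, had 2.33 and 2.04 with 4 and 9 tags, and an ATAC peak in all 4 lists. Mir129-1 had 2.25 and 2.94 with 5 and 15 tags and lies on chromosome 6. Mir3083 and Gm51291 are encoded on opposite strands of the same DNA and count as 1 site.

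At the starts of the members, open chromatin was common in both groups. An ATAC peak lay within 1 kb of 79.6% and 82.8% of members in the scramble KD lists and of 84.9% and 85.5% in the TERRA KD lists. At all other TSS the shares were 59.5%, 63.6%, 62.4% and 64.3%, so members were higher in 4 of 4 lists. TSS with an ATRX peak in just 1 TERRA KD list (2960 of them) came close to the members, at 77.2%, 81.9%, 80.4% and 82.1%. The share at members was 4.03 percentage points higher in TERRA KD (exact permutation test, two-sided, p = 0.333, n = 2 against 2), and 2.22 points higher once the change at the other TSS was subtracted (exact permutation p = 0.333). With protein-coding genes only, the latter was −0.466 points. With 2 samples per group no result could go below 0.333. The TERRA KD ATAC lists were also longer in each replicate (86535 against 78571 and 103911 against 96994 peaks). Peaks stood in all 4 lists at 144 members (77.4%, against 57.3% of all TSS) and in none at 24.

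A change of ATAC call in both replicates was rare. Peaks in both TERRA KD lists and in neither scramble KD list were found at 2 members (1.08%, against 0.602% of all TSS): the array copy n-R5s138 and Gm20110, a non-coding gene of chromosome 10. At Gm20110 the ATAC −log10 p was 5.15 and 4.66, with a pileup of 7 in each list, and the start also carried H3K9me3 peaks in all 4 lists. The reverse change was found at 0 members (0%, against 0.241% of all TSS).

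G4 peaks at the members followed the library that stood apart. A G4 peak lay within 1 kb of 69.4% and 82.8% of members in the scramble KD lists and of 72.6% and 30.6% in the TERRA KD lists, against 41.1%, 64.2%, 48.5% and 22.1% of other TSS. The shares at TSS with ATRX in 1 TERRA KD list were 52.9%, 76.3%, 60.0% and 21.2%. Members were thus above the other TSS in 4 of 4 lists, by 28.2, 18.6, 24.1 and 8.51 percentage points. Within replicate 1 the share at members was 69.4% in the scramble KD lists and 72.6% in the TERRA KD lists, and within replicate 2 it was 82.8% and 30.6%, so the mean difference of −24.5 points had opposite signs in the replicates (exact permutation p = 0.667). Relative to the other TSS the difference was −7.13 points, −4.16 in replicate 1 and −10.1 in replicate 2 (exact permutation p = 0.667). Neither difference was larger than the spread between replicates. Replicate 2 sets the longest and deepest G4 list against the library that stood apart. With lists trimmed to equal length the difference in share was −24.7 points (exact permutation p = 0.333, the smallest possible). At members outside the array the G4 share differed by 8.8 points in replicate 1 and by −57.9 in replicate 2. At other TSS it differed by 7.4 and −42.1 points, and at members in the array by −29.6 and −18.5. Outside the array the replicate 1 difference was thus not below that at other TSS.

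The height of the G4 peaks was compared by rank within each list. The median member's best G4 peak stood at percentile 57.5 and 84.8 of its list in the scramble KD lists and at 43.5 and 0 in the TERRA KD lists, where members without a peak were set to 0 (difference −49.4, exact permutation p = 0.333, the smallest possible). In replicate 1 this percentile differed by −14.1, whereas the share of members with a peak differed by 3.23 points. For members outside the array the replicate 1 medians were close, at 48.0 in scramble KD and 46.3 in TERRA KD. For members outside chromosomes 6 and 8 they were 39.9 and 39.8. The lists differed in length, and with lists trimmed to equal length the difference was −42.7 (exact permutation p = 0.333). With peaks of a −log10 p of at least 5 it was −32.9 (exact permutation p = 1). No member had a G4 peak in both TERRA KD and neither scramble KD list (0%, against 0.249% of all TSS). The reverse was found at 8 members (4.30%, against 4.75% of all TSS), a share close to the background, among them Bola3, Maea, H2-Ke6, Rnf122, Mafk, Mir3083 and Gm51291. At Rnf122, whose window is printed above, the G4 −log10 p was 3.2 and 14.9 in scramble KD, with 5 and 71 tags. Bola3, needed for iron-sulfur cluster assembly in mitochondria, had 3.99 and 43.6 with 8 and 243 tags. Maea, a subunit of the CTLH ubiquitin ligase, had 5.31 and 8.60 with 7 and 52 tags. Mir3083 had 3.22 and 26.7 with 7 and 153 tags. G4 peaks were in all 4 lists at 33 members (17.7%, against 9.19% of all TSS) and in none at 13.

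The DNA around the members was richer in guanine and cytosine than at other genes. Within 1 kb on each side of the TSS the median GC content was 56.5% for all members, 63.1% in the 5S array and 54.7% outside it, against 50.9% for other TSS and 53.5% for TSS with ATRX in 1 TERRA KD list. A G4 motif lay within 1 kb of 71.0% of members (66.0% outside the array), of 54.9% of other TSS and of 62.9% of TSS with ATRX in 1 list. On the coding strand the shares were 58.6% for members (51.6% outside the array) and 38.6% for other TSS. On the template strand they were 51.1% for members (42.8% outside the array) and 32.7% for other TSS. Members outside the array with a motif had a G4 peak in 69.5% and 83.8% (scramble KD) and in 74.3% and 18.1% (TERRA KD) of cases, and those without a motif in 53.7%, 85.2%, 70.4% and 42.6%. Tandem copies of the telomere repeat (TTAGGG at least 2 times in a row, either strand) occurred within 1 kb of 0 members and of 29 other TSS (0.112%).

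H3K9me3 was uncommon at the members but more frequent than at other genes. It lay within 1 kb of 10.8% and 6.99% of members in the scramble KD lists and of 15.1% and 14.0% in the TERRA KD lists, against 2.23%, 1.93%, 2.27% and 1.99% of other TSS, and 4.53%, 2.77%, 4.63% and 3.55% of TSS with ATRX in 1 TERRA KD list. The TERRA KD values were both above the scramble KD values, by 5.65 points on average (exact permutation p = 0.333), and by 5.59 points relative to the other TSS (exact permutation p = 0.333). Outside the array the shares were 10.1% and 5.03% in the scramble KD lists and 10.7% and 9.43% in the TERRA KD lists. In the array they were 14.8% and 18.5% against 40.7% and 40.7%. Without the array genes the change relative to other TSS was 2.47 points, and without chromosomes 6 and 8 it was 2.56 points (exact permutation p = 0.667 for each). With peaks of a −log10 p of at least 5 the change in share at members was 1.61 points, and with protein-coding genes only it was 2.73 points (exact permutation p = 1 for each). ATRX and H3K9me3 were called against the same input of each group and replicate, and the part of that input in both was not tested.

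Peaks in both TERRA KD and neither scramble KD list of H3K9me3 were found at 5 members (2.69%, against 0.123% of all TSS), of which 4 were array copies (n-R5s136, n-R5s134, n-R5s104 and n-R5s128). The one outside the array was Tktl2, a transketolase-like gene of chromosome 8, with a −log10 p of 3.48 and 2.48. That is 0.629% of the 159 members outside the array. The reverse change was found at 0 members (0%, against 0.0575% of all TSS). A peak in at least 2 H3K9me3 lists was found at 28 members (15.1%, against 2.18% of all TSS), 18 of them outside the array (11.3%), and 140 had a peak in none. All 4 lists had one at Dpep3, a dipeptidase gene, Mir7216 and Gm20110. At Dpep3 the −log10 p was 18.7 and 3.24 in the scramble KD lists and 20.4 and 6.75 in the TERRA KD lists. Hsbp1, which encodes an inhibitor of heat shock factor, had 39.1 in scramble KD replicate 1 and 46.1 and 2.80 in TERRA KD, and Maea had 64 and 36 in the replicate 1 lists and no peak in either replicate 2 list.

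**Figure D5:**
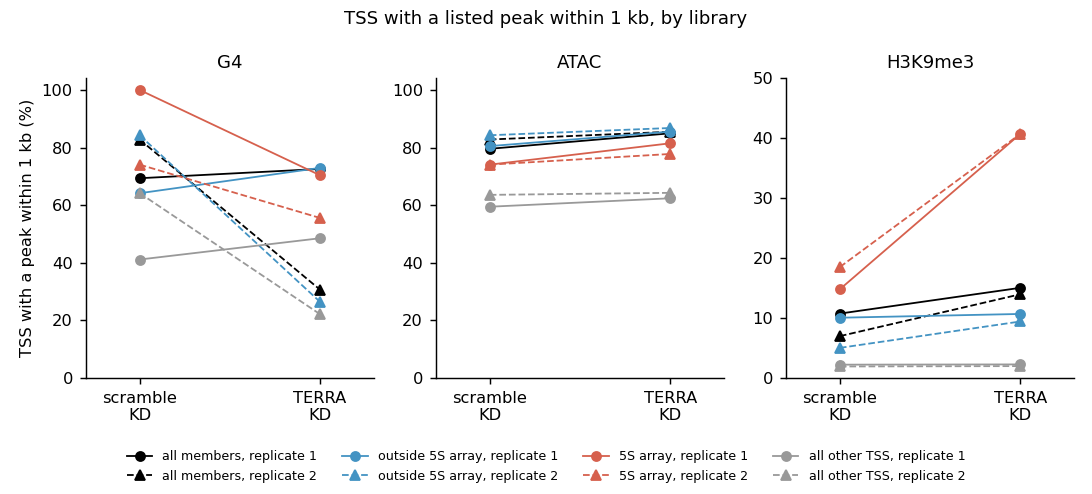
Share of TSS with a listed peak within 1 kb (%) for G4, ATAC and H3K9me3 (the H3K9me3 axis ends at 50), in scramble KD and TERRA KD, with lines joining lists of the same replicate number (solid 1, dashed 2). Members (black) lie above other TSS (gray) throughout, G4 is lowest, at 30.6%, in TERRA KD replicate 2, and H3K9me3 in the array (red) is 14.8% and 18.5% in scramble KD and 40.7% in both TERRA KD lists.

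For the 98 members outside chromosomes 6 and 8 the ATAC shares were 81.6% and 80.6% in the scramble KD lists and 83.7% and 85.7% in the TERRA KD lists. The G4 shares were 58.2%, 81.6%, 69.4% and 23.5%, and the H3K9me3 shares were 11.2%, 6.12%, 12.2% and 10.2%, in the same order. The mean difference between groups was −23.5 points for G4, 3.57 for ATAC and 2.55 for H3K9me3, against −24.5, 4.03 and 5.65 over all members.

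The ATRX peaks of the members differed from ATRX peaks elsewhere in what they overlapped. In TERRA KD replicate 1, 68.9% of the 167 peaks at members overlapped an ATAC peak of the same group and replicate, against 15.2% of all 41114 ATRX peaks used, and in replicate 2 the shares were 67.7% and 15.6%. Overlap with H3K9me3 was lower at the members, 13.2% against 29.9% in replicate 1 and 10.2% against 16.6% in replicate 2. Overlap with G4 was 62.3% against 19.1% in replicate 1, and 26.3% against 26.8% in replicate 2, with the G4 library that stood apart. Because the members' peaks were chosen for lying near a TSS, where ATAC peaks are frequent, these overlaps are a description and were not tested.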

How the data were processed

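The peak lists of 16 libraries were used (4 assays, 2 groups, 2 replicates). Per the submitters' processing notes and the file headers, reads were trimmed with Trim Galore 0.5.0, aligned to mm10 (GRCm38) with Bowtie2 2.3.4.1 and handled with SAMtools 1.9 and deepTools 3.1.1, and the authors called peaks per library with MACS 1.4.3 (ATRX, H3K9me3) or 1.4.2 (G4) against input and with MACS 2.2.7.1 (ATAC) without input, at a p cutoff of 0.01. ATRX and H3K9me3 shared inputs, and both G4 replicates of a group shared 1 input. The deposited values were tag counts, a score (−10 times log10 p, divided by 10 here), the fold enrichment ratio over input and an FDR in percent for the pull-downs, and the pileup signal, fold enrichment ratio and −log10 p for ATAC (its −log10 q was not used). After filtering, libraries held 2961038 to 24588605 tags (G4), 5976014 to 7883648 (ATAC), 5435286 to 13898785 (H3K9me3) and 4104486 to 15506154 (ATRX). Shallower libraries can miss weak peaks, and intervals on peak calls were not computed. The 6 input samples were not analysed here.

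A TSS counted as having a peak when the nearest base lay within 1 kb. Peaks were ranked within their list by p. G4 motifs were 4 runs of at least 3 G with loops of 1 to 7 bases. Shares were compared over libraries with two-sided exact permutation tests (smallest p 0.333). The study calls its replicates biological but the labels name no separate cultures, so p-values measure the spread between these samples, which may be technical. The labels fixed the groups. The members, gene lists and tests were chosen with earlier results of these data known, and functional groups were assigned by hand from the members' names. Genes were named by the rank of the worse TERRA KD peak (the best 20, with genes that shared both peaks counted once), by change class (up to 10), or by family and list. Others were chosen after their values were seen. Python 3.11.15, NumPy 2.4.6, pandas 2.3.3, SciPy 1.17.1 and matplotlib 3.10.9 were used, and the scripts were tested on simulated data. Alternatives covered the distance limit, peak strength, list length, peak overlap, gene class, replicates and pairing. A few items that the rules would name are not reported here.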

Additional observations from a re-analysis of the deposited data

How the results depend on the processing

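The count of genes with ATRX in both TERRA KD lists and in neither scramble KD list moved most. From 186 it went to 109 with a limit of 500 bp, to 359 with 2 kb, to 19 with peaks of a −log10 p of at least 5, to 42 with all 4 lists trimmed to equal length by rank and to 103 when the best peaks of both TERRA KD lists had to overlap. Leaving out either replicate gave 1248 to 2115. Chosen after seeing the data, leaving out chromosomes 6 and 8 gave 98. The difference in G4 share at members was −24.5 points but 3.23 without replicate 2, and leave-one-out values ran from −52.2 to 3.23. The ATAC change relative to other TSS, 2.22 points, was −0.466 with protein-coding genes only, and the cause was not tested. Of 125 values recomputed, the 8 counts above moved, 2 differences reversed, and 115 kept their direction or, for counts, stayed within 1.5 times. Sizes moved more: the H3K9me3 change relative to other TSS, 5.59 points, was 1.44 with peaks of a −log10 p of at least 5, and that of ATAC was 0.278 with 2 kb. Same-numbered libraries correlated in their deviations by 0.25 (G4), 0.1 (ATAC), 0.22 (H3K9me3) and 0.0087 (ATRX), with 2 pairs only, so the replicate numbers were not taken as pairing. With the replicate number as a block the G4 share difference was −24.5 (exact sign-flip p = 1) and the others kept their values, with p = 0.5, the smallest possible. With a median of 5 and 12 tags behind the ATRX peaks of members outside the 5S array, depth limits what each single gene shows.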
